A study of Mus musculus with 14 samples.

Results

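The genes described here are 10 that cells use when proteins misfold in the endoplasmic reticulum (ER) or when amino acids run short. They are *Atf4*, *Atf3*, *Ddit3*, *Trib3*, *Asns*, *Chac1*, *Hspa5*, *Xbp1*, *Herpud1* and *Sesn2*. They were chosen by name, and 12 of the 41174 gene probes on the array carry these names (10 of 27962 gene names), with 2 probes each for *Trib3* and *Sesn2* and 1 for each of the others. Their levels were measured in 14 mouse blastocyst samples at embryonic day 4.0, each on an Agilent 1-color array whose probe brightness stands for the transcript level. SCNT, somatic cell nuclear transfer, puts the nucleus of a body cell into an oocyte whose own chromosomes were removed. The SCNT-derived embryos were made from cumulus cells, the somatic cells around the oocyte, with 4 samples made by cell fusion (fusion clones) and 4 by nuclear injection (injection clones). The controls were 3 male and 3 female IVF-derived embryos, and all clones are female. According to the methods, donor cells came from heterozygous *Xist* knockout mice on a BDF1 background, and recipient oocytes and IVF-derived embryos were BDF1, a cross of C57BL/6N and DBA/2 mice. That description is not made separately for these blastocysts. The methods name KSOM medium for reconstructed oocytes up to the 2-cell stage and give no medium for IVF-derived embryos. The RNA was amplified linearly before labeling. The number of embryos behind each sample is not given in the sources used here, nor whether samples of a group came from separate experiments, so the p-values measure the spread between these samples, which may be technical in part.

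When unfolded proteins gather in the ER lumen, sensors in its membrane start the unfolded protein response. The sensor PERK phosphorylates the initiation factor eIF2, which slows general translation but favors translation of the transcription factor ATF4. The kinase GCN2 does the same when uncharged tRNAs accumulate. ATF4 then raises genes for amino acid synthesis, amino acid import and tRNA charging. The sensor IRE1 splices the *Xbp1* transcript, and ATF6 is released from the membrane by proteolysis. Both lead to more chaperones and to degradation of misfolded proteins. Preimplantation embryos are sensitive to their culture medium and are known to use these pathways. The array probes measure transcript levels and not splicing of *Xbp1*, translation of *Atf4* or phosphorylation of eIF2.

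The promoter sequences of these genes were searched for letters that these transcription factors are known to read, since the genes are grouped by these factors below. All 10 genes had a promoter in the RefSeq table (GRCm38.p6), a window of 300 bases from 250 before to 50 after the gene start. Letters were searched on both strands. The ER stress response element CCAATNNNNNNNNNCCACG, read by ATF6 with the factor NF-Y, was found in 39 of 32851 promoters (0.119%) and among the 10 genes in *Hspa5* alone. The shorter element ATTGGNCCACG was in 12 promoters (0.0365%) and here only in *Herpud1*. The element TGATGNAA, read by ATF4 with a C/EBP partner, was in 1304 promoters (3.97%), and in 5 of the 10 genes, *Atf3*, *Trib3*, *Asns*, *Chac1* and *Herpud1*. None of the 3 was found in *Atf4*, *Ddit3*, *Xbp1* or *Sesn2*, which says only that these letters are not in those windows. The ER elements share the letters CCACG, and no match overlapped another. A match is a description of the letters and was not tested as a binding site. The 120 bases before the gene start follow, read 5′ to 3′ toward the gene, for *Hspa5* (chr2:34771970-34772089, plus strand), *Herpud1* (chr8:94386309-94386428, plus strand), *Asns* (chr6:7693210-7693329, minus strand) and *Xbp1* (chr11:5520521-5520640, plus strand). Capitals mark the fixed letters of a match. *Xbp1* is shown because it had the clearest difference between clones and controls, and it holds none.
Hspa5: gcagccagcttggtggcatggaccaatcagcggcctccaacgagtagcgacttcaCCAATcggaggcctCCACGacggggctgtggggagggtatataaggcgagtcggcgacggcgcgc
Herpud1: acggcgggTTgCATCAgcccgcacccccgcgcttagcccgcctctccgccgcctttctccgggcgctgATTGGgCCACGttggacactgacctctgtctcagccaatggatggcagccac
Asns: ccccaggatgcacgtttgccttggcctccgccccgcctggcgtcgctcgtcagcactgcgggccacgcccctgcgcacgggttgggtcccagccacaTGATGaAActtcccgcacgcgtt
Xbp1: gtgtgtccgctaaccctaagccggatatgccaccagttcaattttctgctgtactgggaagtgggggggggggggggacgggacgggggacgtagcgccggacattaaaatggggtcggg
In *Hspa5* the match begins 65 bases before the start and in *Asns* 23 bases before it. *Herpud1* has the short ER element 52 bases before the start and the ATF4 element, on the opposite strand, 112 bases before it.

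The other matches of the ATF4 element lay 110 bases before the start in *Atf3*, 193 before it in *Chac1* and at base 15 of the transcript in *Trib3*. They are shown here as 30 bases around the match, on the strand of the gene, because *Atf3*, *Chac1* and *Trib3* were the genes with the widest spread between control embryos (below). In all 3 the element reads on the opposite strand, so that its capitals appear reversed.
Atf3: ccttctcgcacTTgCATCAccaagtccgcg
Chac1: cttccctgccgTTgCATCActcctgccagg
Trib3: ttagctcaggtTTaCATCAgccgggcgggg

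The arrays had similar shares of gene spots well above background, 57.45% to 65.22%. Pairwise correlations within groups were 0.9426 to 0.9723. Each group was on a slide of its own, and the clone arrays were scanned on another scanner and read with another software version than the IVF arrays. Group and slide, and cloning and scanner, therefore cannot be told apart. The dim end of the intensities differed too. After background subtraction 0 gene spots were below zero on each clone array, against 6790 to 9981 of 43379 on the IVF arrays. The effect of this on dim values compared between clones and controls was not tested. Of all probes tested, 1401 of 32458 were higher (4.32%) and 1678 lower (5.17%) in fusion clones than in female embryos at an adjusted p below 0.05 by limma. In injection clones the counts were 503 higher (1.53%) and 702 lower (2.14%) of 32840. On the table of log2 values deposited by the authors the split was 1587 higher and 951 lower in fusion clones, and 403 higher and 226 lower in injection clones. Of markers for the cell types of a blastocyst, all 4 measured epiblast genes and all 5 trophectoderm genes were well above background on every array. Of 8 cumulus cell markers, each by its brightest probe, 6 were well above background on no fusion clone array (*Amh*, *Has2*, *Ptx3*, *Tnfaip6*, *Inha* and *Inhba*) and 5 on no injection clone array (the same without *Inha*). Among controls, 1 was well above background on no male array (*Has2*) and 3 on no female array (*Ptx3*, *Tnfaip6* and *Inhba*). *Fshr* and *Cyp19a1* were well above it on 3 of 4 fusion and 4 of 4 injection clone arrays, and *Cyp19a1* stood at 9.09 and 8.28 on a log2 scale in injection clones 1 and 2, against 4.38 to 5.25 in the other clones and 4.0 to 5.07 in the controls. The summed intensity of the 8 markers was 138 to 159 in fusion clones, 140 to 735 in injection clones, 271 to 1749 in males and 174 to 431 in females. The mean log2 intensity over the 8 markers was 4.97, 4.57, 4.11 and 4.16 in injection clones 1 to 4. It was 5.38, 4.49 and 5.50 in males 1 to 3 and 4.36, 4.42 and 4.70 in females 1 to 3. The log2 intensity of *Xbp1* was 9.02 and 9.25 in injection clones 1 and 2 and 11.68 and 11.44 in males 1 and 3 (below). The part of cumulus cells in the level of *Xbp1* was not tested.

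*Xbp1*, a factor of the ER branch of the response, fell in fusion clones and was the only one of the 10 genes to pass the test. The mean of *Herpud1*, another gene of that branch, was below that of female embryos in both kinds of clone without passing it. In fusion clones 1 of 10 genes was called lower and 0 higher, beside 5.17% and 4.32% of all probes. In injection clones 0 of 10 were called at an adjusted p below 0.05, beside 2.14% lower and 1.53% higher of all probes. At an unadjusted p under 0.05 the counts were 3 and 2 of 10, beside 27.2% and 23.2% of all probes. The median log2 difference over the 10 genes was -0.61 in fusion clones, where that of all probes was -0.12, and -0.79 in injection clones, where that of all probes was -0.08. These medians rested on few samples. The fusion median was -1.40 without female 2 and -0.40 without female 1. The injection median was -1.76 without female 2, -0.31 without female 1, -0.37 without female 3, -0.38 and -0.52 without injection clones 1 and 2, and -1.26 without injection clone 3. Both comparisons share the 3 female samples. By the threshold of the methods, at least a 2-fold difference and a p below 0.05, taken here as unadjusted since the methods name no adjustment, 2 of 10 genes (*Xbp1* and *Herpud1*) were lower in fusion clones and 2 (*Xbp1* and *Asns*) in injection clones, beside 17% and 14% of all probes in either direction.

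*Xbp1* encodes the transcription factor made by IRE1-dependent splicing, which raises genes for secretion and ER folding. Its log2 intensity was 10.26, 10.49, 9.67 and 10.17 in fusion clones 1 to 4 and 9.02, 9.25, 10.34 and 10.01 in injection clones 1 to 4. It was 11.68, 10.92 and 11.44 in the male and 11.33, 11.44 and 12.06 in the female IVF-derived embryos. Every clone was below every control, with 10.49 the highest of 8 clones and 10.92 the lowest of 6 controls. Such a gap with the clones lower was present in 4.02% of all probes. Fusion clones (10.15 ± 0.34, SD, n = 4) were lower than female embryos (11.61 ± 0.39, SD, n = 3) by a log2 difference of -1.47 ± 0.28 (SE), a 2.76-fold change with an adjusted p of 0.0286 by limma. The difference for injection clones (9.65 ± 0.62, SD, n = 4) was larger in size, -1.96 ± 0.39 (SE) or 3.89-fold, but their spread was wider and the adjusted p was 0.0521. Over the alternative settings the adjusted p ranged from 0.0185 to 0.192 for fusion clones and from 0.00791 to 0.158 for injection clones, and the direction stayed the same in all of them. The call in fusion clones was lost without any single fusion clone (adjusted p of 0.0516 to 0.0665) and without female 3 (0.0582).

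*Herpud1* encodes an ER membrane protein that takes part in the degradation of misfolded proteins. It stood at 11.81, 11.67, 11.46 and 11.25 in fusion clones and at 10.03, 11.95, 12.35 and 12.12 in injection clones 1 to 4. The male embryos were at 13.74, 12.19 and 13.46 and the female embryos at 13.60, 12.11 and 14.17. Male 2 and female 2 were thus within the range of the clones, whereas the other 4 controls were above 13. The difference from female embryos was -1.75 ± 0.49 (SE) in fusion clones with an adjusted p of 0.0727 and -1.68 ± 0.74 (SE) in injection clones with an adjusted p of 0.239 by limma. Neither passed the test. Without female 2 the difference of fusion clones was -2.34 and passed it, with an adjusted p of 0.0101. That was the lowest over the 20 alternative settings, of which 2 gave an adjusted p below 0.05 and the highest was 0.235. With single samples left out it reached 0.175. In injection clones the adjusted p ranged from 0.108 to 0.452 by limma over the settings.

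*Hspa5* encodes BiP, the main chaperone of the ER lumen and the usual marker of the unfolded protein response. Its levels in clones were tight, at 16.89, 16.84, 16.88 and 16.62 in fusion clones and 16.46, 16.61, 16.91 and 16.72 in injection clones. Female embryos 1 and 2 were at 17.40 and 16.78. The spot of female 3 was marked as an outlier by the scanner software and was left out of the fit, and it reads 16.54 when such spots are kept. The male embryos, at 15.39, 15.77 and 16.21, were below all clones and both female samples. The difference was -0.28 ± 0.25 (SE) in fusion and -0.42 ± 0.25 (SE) in injection clones, with adjusted p of 0.497 and 0.392 by limma. Neither passed the test, and both clone groups overlapped with the female samples.

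Markers of the primitive endoderm, the cell layer of the blastocyst that faces the cavity and becomes secretory, had lower mean log2 values in the clones than in female embryos. The mean log2 intensity over 5 markers (*Gata4*, *Gata6*, *Sox17*, *Pdgfra* and *Sox7*) was 7.61 to 11.76 in fusion clones, 8.36 to 12.02 in injection clones, 10.77 to 12.82 in males and 12.31 to 13.10 in females. Their summed intensity, in which *Gata6* weighs most, was 74105 to 160767, 61412 to 136075, 63843 to 100300 and 94676 to 139769 in the same order. *Sox7* fell in fusion clones (-6.39 ± 1.01, SE, adjusted p of 0.018 by limma), by a size that ranged over the settings from -7.43 to -3.59, the latter as the mean of its probes. It was the one of 5 markers called there (5.17% of all probes were lower), and 0 were called in injection clones, with medians of -2.54 and -3.57. The call of *Sox7* was lost without fusion clone 3, female 1 or female 3. *Sox17* was at the floor of 4.0 in fusion clone 4 and injection clone 2. The median of epiblast markers was -0.30 and 0.17, and that of trophectoderm markers -0.02 and -0.11. In whole blastocysts fewer cells of a type and less RNA per cell cannot be told apart, and the part of the primitive endoderm in the levels of *Xbp1* and *Herpud1*, and of the sensors, chaperones and tRNA synthetases below, was not tested. The marker means of fusion clones 1 to 4 were 9.84, 11.76, 11.50 and 7.61 and those of injection clones 1 to 4 were 8.75, 8.36, 12.02 and 9.70, to be set beside the levels of *Xbp1* in the same samples above.

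**Figure D1:**
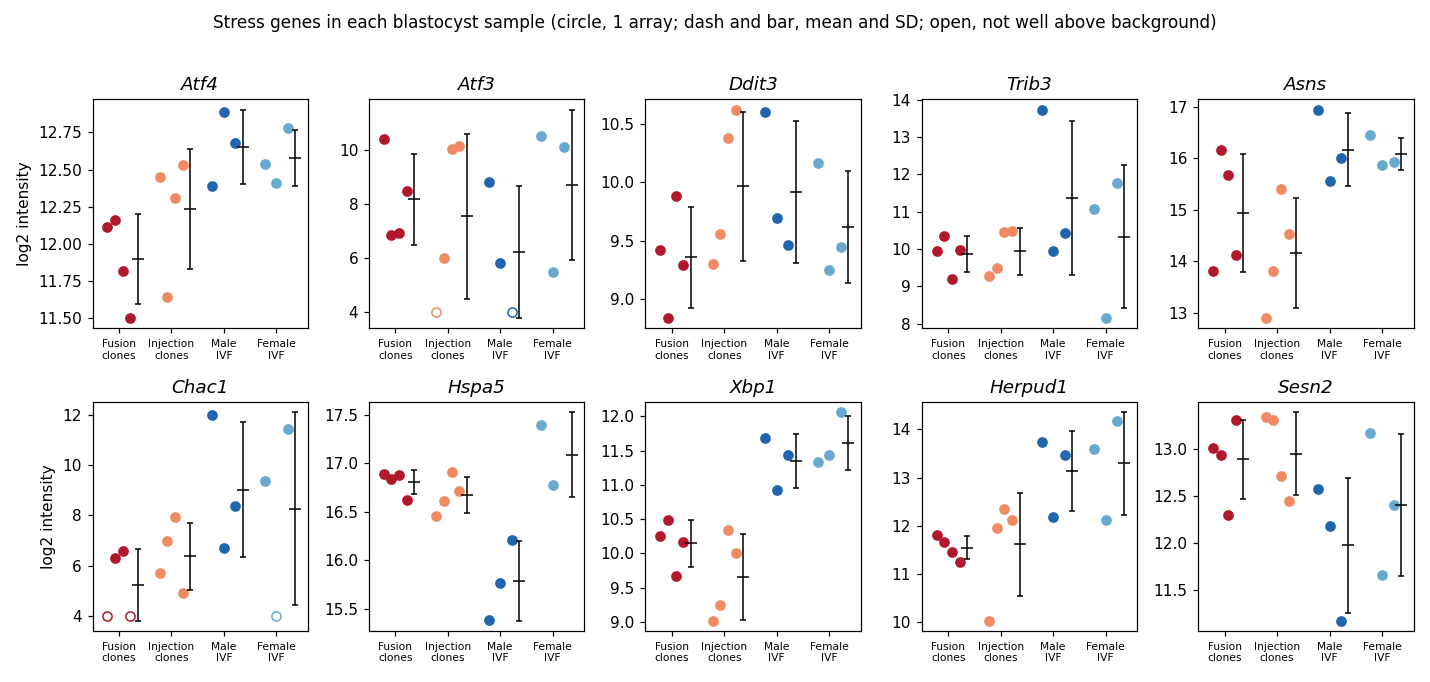
Log2 intensity (vertical axes, one scale per gene) of the 10 stress genes in each of the 14 samples, grouped by kind of embryo, with the group mean and SD beside the points. Open circles mark arrays on which the probe was not well above background. For *Xbp1*, all 8 clones lie at or below 10.49 and all 6 controls at or above 10.92, whereas *Atf3* and *Chac1* reach from the floor of 4.0 to above 10 in the controls or clones.

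Of *Atf4* and the genes it raises, none passed the test, although the means of most were below those of female embryos in both kinds of clone. *Atf4* itself encodes the transcription factor at the center of both responses. It was at 12.11, 12.16, 11.82 and 11.50 in fusion clones, and at 12.45, 11.64, 12.31 and 12.53 in injection clones. The males were at 12.39, 12.89 and 12.68, and the females at 12.54, 12.41 and 12.78. All fusion clones were thus below all female embryos, while 2 of the injection clones were within the range of the females. The difference from female embryos was -0.68 ± 0.22 (SE, adjusted p of 0.106 by limma) in fusion and -0.35 ± 0.25 (SE, adjusted p of 0.476) in injection clones. Groups that did not overlap with female embryos, with the clones lower, occurred for 3 of 10 genes in fusion clones (*Atf4*, *Xbp1* and *Herpud1*) and for 15.4% of all probes. In injection clones this held for 2 of 10 genes (*Asns* and *Xbp1*) and for 12.5% of all probes.

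*Asns* encodes asparagine synthetase, a standard ATF4 target. It was at 13.81, 16.16, 15.68 and 14.12 in fusion clones and at 12.90, 13.81, 15.41 and 14.54 in injection clones. The controls were at 16.95, 15.56 and 16.01 in males and 16.45, 15.87 and 15.94 in females. The injection clones were all below the females, as in 12.5% of all probes, while fusion clones 2 and 3 were within the range of the controls. Injection clones had a log2 difference from female embryos of -1.92 ± 0.59 (SE), 3.79-fold in size, with an adjusted p of 0.125 by limma. Fusion clones differed by -1.14 ± 0.63 (SE) with an adjusted p of 0.3. The spread of *Asns* was wider among clones, with a within-group SD of 1.11, than among controls, with 0.55, but the difference in spread was not tested.

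*Chac1*, *Trib3* and *Atf3* were the genes with the widest spread. *Chac1* encodes an enzyme that degrades glutathione and is induced by ATF4. It was at 4.0, 6.30, 6.60 and 4.0 in fusion clones and 5.69, 6.98, 7.93 and 4.90 in injection clones. The males were at 11.99, 6.70 and 8.39, and the females at 9.38, 4.0 and 11.45. Values of 4.0 are the floor and were not well above background. No clone reached the level of male 1, male 3, female 1 or female 3, but female 2 was at the floor. The differences were -3.05 ± 1.79 (SE, adjusted p of 0.333 by limma) in fusion and -1.90 ± 1.82 (SE, adjusted p of 0.56) in injection clones. Only 0.0286% of the 35042 probes above background on any array had a within-group SD in the controls as large as its 3.32.

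*Trib3* encodes a pseudokinase that binds AKT and dampens ATF4 activity. Its brighter probe was at 9.95, 10.36, 9.19 and 9.98 in fusion clones and at 9.29, 9.5, 10.47 and 10.48 in injection clones. The males were at 13.74, 9.96 and 10.43, and the females at 11.08, 8.15 and 11.77. The controls of both sexes together thus ranged 48-fold, from female 2 to male 1, and the clones 2.44-fold. The within-group SD was 1.99 in controls, as large in 2.82% of probes, and 0.56 in clones, as large in 37.5%. The median SD over all these probes was 0.52 in controls and 0.42 in clones, and the difference in spread was not tested. The clones lay between female 2, the lowest, and female 1, and their differences from female embryos did not pass the test (-0.46 ± 0.86 and -0.40 ± 0.91, SE, adjusted p of 0.74 and 0.805 by limma). The second probe, much dimmer and not well above background in male 3, also had male 1 as its highest sample, at 8.53. Its differences from female embryos were -0.74 ± 0.37 (SE) in fusion and -0.66 ± 0.42 (SE) in injection clones, with adjusted p of 0.253 and 0.403.

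*Atf3* encodes a transcription factor induced by many stresses. It was at 10.42, 6.83, 6.93 and 8.48 in fusion clones and 4.0, 5.98, 10.03 and 10.16 in injection clones. The males were at 8.83, 5.80 and 4.0, and the females at 10.51, 5.49 and 10.12. Injection 1 and male 3 were at the floor and not well above background. High and low samples occurred in all 4 groups, and the spread was wide in clones (SD of 2.47, as large in only 0.334% of probes) and in controls (2.62, 0.355%). The differences were -0.54 ± 1.48 (SE) and -1.17 ± 2.03 (SE), with adjusted p of 0.826 and 0.74 by limma.

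*Ddit3* encodes CHOP, a transcription factor that favors cell death under long ER stress. Its levels were 9.42, 8.84, 9.88 and 9.29 in fusion clones and 9.30, 9.56, 10.38 and 10.62 in injection clones. The males were at 10.60, 9.69 and 9.46, and the females at 10.16, 9.25 and 9.45. All groups overlapped. The differences from female embryos, -0.26 ± 0.33 (SE) in fusion and 0.34 ± 0.41 (SE) in injection clones, had adjusted p of 0.616 and 0.622 by limma. *Sesn2* encodes sestrin 2, which restrains the growth kinase mTORC1 when leucine is scarce. Its brighter probe was at 13.01, 12.93, 12.30 and 13.30 in fusion clones and 13.33, 13.30, 12.71 and 12.45 in injection clones, against 12.57, 12.18 and 11.18 in males and 13.16, 11.66 and 12.40 in females. It was the one gene of the 10 with a higher mean in fusion clones than in female embryos, by 0.48 ± 0.41 (SE), and its mean was higher in injection clones by 0.54 ± 0.41 (SE). With adjusted p of 0.483 and 0.485 by limma neither passed the test. The dimmer probe gave 0.46 ± 0.22 (SE) in fusion and -0.07 ± 0.32 (SE) in injection clones.

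**Figure D2:**
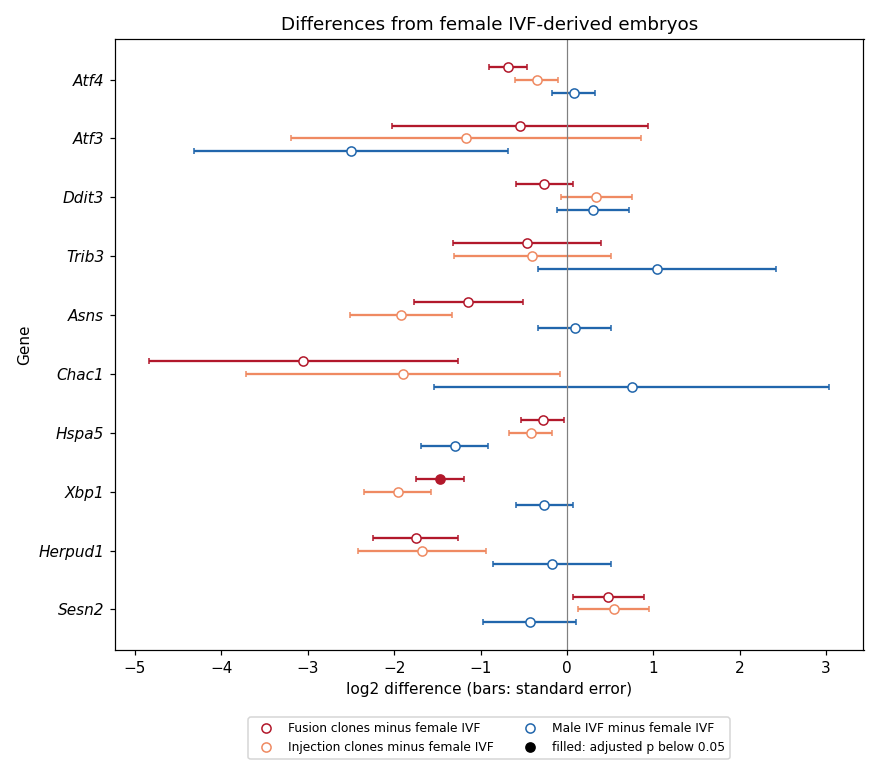
Log2 difference from female IVF-derived embryos (horizontal axis, with standard errors) of each of the 10 genes (vertical axis) in fusion clones, injection clones and male IVF-derived embryos. *Xbp1* in fusion clones, at -1.47, is the only filled point, which marks an adjusted p below 0.05, and *Atf3*, *Chac1* and *Trib3* have the widest errors.

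The spread within groups was shared by several of the genes. Female 2 was the lowest of its group for 9 of the 10 genes, all but *Xbp1* (for *Hspa5* of 2 values). With the outlying *Hspa5* spot of female 3 kept, female 3 was lower for that gene, at 16.54 against 16.76 in female 2. Male 1 was the highest of its group for 8, all but *Atf4* and *Hspa5*. Among the injection clones, sample 1 was the lowest for 7 genes, and samples 3 and 4 held the highest value of 9 between them. The fusion clones had no such order, with 1 to 4 genes highest in each. How often each array was the lowest or highest of its group over all probes was not counted. The genes share arrays, and no cause of these differences between samples was tested. The share of spots well above background, 60.77% in female 2 and 61.29% in male 1, was within the range of the other arrays. None of the 24 sets of 4 clone samples (12 probes in fusion and injection clones) held a sample apart from the other 3 by Dixon's criterion.

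**Figure D3:**
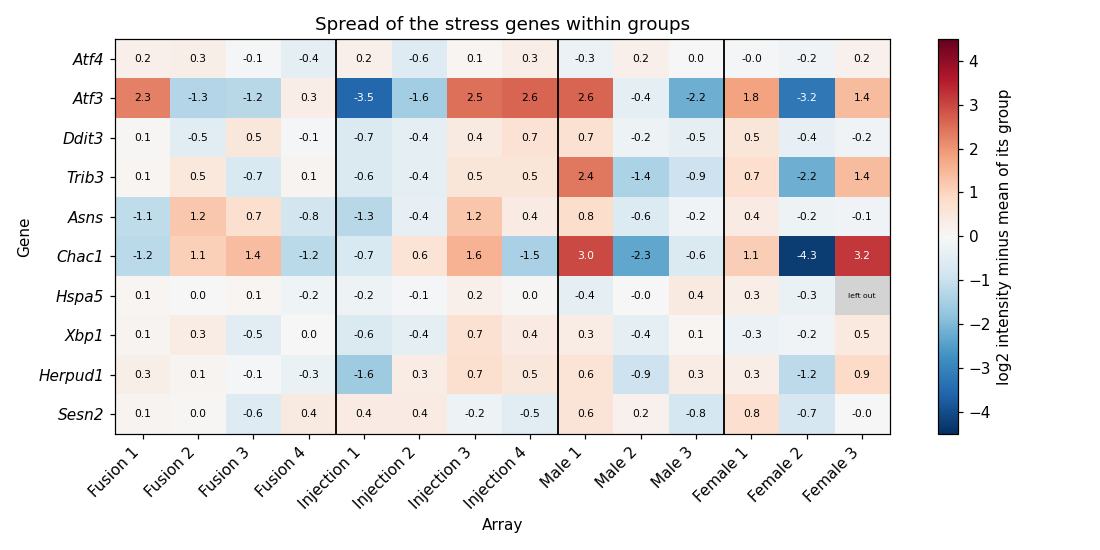
Log2 intensity of each gene (rows) on each array (columns) minus the mean of its group, as color and as a number. Female 2 is below its group's mean for every gene with a value, by 4.3 for *Chac1* and 3.2 for *Atf3*, and male 1 is above it by 3.0 for *Chac1* and 2.4 for *Trib3*. The grey cell is the *Hspa5* spot that was left out.

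The fusion and injection clones were compared directly to ask whether the method of nuclear transfer changed these genes. None of the 10 genes passed the test (0% of 32303 probes did at an adjusted p below 0.05, and 1993 probes or 6.17%, but none of the 10 genes, had an unadjusted p under 0.05). The adjusted p were 0.814 to 0.996, and the median difference of fusion minus injection was -0.06, where that of all probes was -0.01. By the threshold of the methods 0 of 10 genes and 2.38% of all probes differed. The largest differences were -1.15 ± 0.90 (SE) for *Chac1*, 0.78 ± 0.73 (SE) for *Asns* and 0.63 ± 1.61 (SE) for *Atf3*. A difference of that size in these genes was not detectable with 4 samples each, and the clones are not shown to be alike.

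The male and female IVF-derived embryos were compared to see how far these genes differ without nuclear transfer. None of the 10 genes passed the test by limma (0.0593% of 32046 probes did), and 1 had an unadjusted p under 0.05, as did 7.76% of all probes. This was *Hspa5*, with a lower mean in males (15.79 ± 0.41, SD, n = 3) than in females (17.09 ± 0.44, SD, n = 2) by a log2 difference of -1.30 ± 0.39 (SE), a 2.46-fold change with an adjusted p of 0.573. It was the one gene of the 10 past the threshold of the methods, which 5.79% of all probes passed, and the one whose groups did not overlap, as in 12.8% of all probes. The median over the 10 genes was -0.04, where that of all probes was -0.03. The mean of *Chac1* was higher in males by 0.75 ± 2.29 (SE) and that of *Trib3* by 1.04 ± 1.38 (SE), while that of *Atf3* was lower, -2.50 ± 1.82 (SE). The within-group SDs of these 3 genes, 1.92 to 3.84, were about as large as these differences or larger.

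Genes of the sensor list showed mixed differences. Besides sensors it holds the proteases that cut ATF6, a subunit of eIF2 and phosphatase subunits, named below. Of its 13 genes tested, 0 were called higher and 1 lower in fusion clones, where 5.17% of all probes were lower. In injection clones 0 were called higher and 2 lower, where 2.14% of all probes were lower. The medians of the 13 genes were -0.09 and -0.23. *Atf6b*, a relative of the sensor *Atf6* and named Crebl1 in the files, fell in fusion clones (-1.19 ± 0.23, SE, adjusted p of 0.0317 by limma). Its levels there were 5.91 to 6.68 against 7.50 to 7.78 in female embryos, a gap with the clones lower as in 15.4% of all probes. In injection clones it was at -0.94 ± 0.20 (SE, adjusted p of 0.0607). *Eif2ak4*, which encodes GCN2, the sensor of uncharged tRNA, fell in injection clones (-1.52 ± 0.27, SE, adjusted p of 0.0428), with a difference of -1.94 ± 0.49 (SE, adjusted p of 0.0569) in fusion clones. Its levels were 9.03 to 11.02 over the 8 clones and 11.71 to 12.58 over the 6 controls, and such a gap with the clones lower was present in 4.02% of all probes. A second probe of *Eif2ak4* had differences of -2.54 in fusion and -1.94 in injection clones, and another dim probe of -0.11 and -0.79, none of them called. *Atf6* fell in injection clones (-1.42 ± 0.26, SE, adjusted p of 0.0453) and was at -0.90 ± 0.25 (SE, adjusted p of 0.0743) in fusion clones, while its second probe was at -0.05 and 0.01. The call of *Atf6* was lost without any single sample, that of *Atf6b* without any but fusion clone 2, and that of *Eif2ak4* without injection clone 1, 2 or 3 or female 2 or 3.

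The other genes of the sensor list did not pass the test in either comparison by their brightest probes. *Eif2ak3*, which encodes PERK, was at 0.30 in fusion and 0.00 in injection clones, and *Ern1*, which encodes IRE1, at 0.57 and 0.59. Its relative *Ern2* was at 0.25 and -0.12. *Eif2ak1*, the kinase that senses heme, was at -0.58 and 0.11, and *Eif2ak2*, the kinase that senses double-stranded RNA, at -0.07 and -0.80. Of the proteases that cut ATF6, *Mbtps1* was at -0.13 and -0.42, and *Mbtps2*, an X-linked gene, at 2.75 ± 1.08 (SE, adjusted p of 0.166) and 2.98 ± 0.94 (SE, adjusted p of 0.133). Levels of *Mbtps2* were 8.59 to 11.18 over the 8 clones and 4.54 to 8.48 over the 6 controls. The share of all probes with every clone above every control was not counted, and the dimmer probes of *Mbtps2* are not described here. A dimmer probe of *Mbtps1* was called higher in fusion clones, at 0.84 ± 0.17 (SE, adjusted p of 0.0345). *Eif2s1*, the subunit of eIF2 that the kinases phosphorylate, was at 0.24 and 0.23. Of the phosphatase subunits that reverse this, *Ppp1r15a* (Myd116 in the files) was at -0.44 and -0.26 and *Ppp1r15b* at -0.09 and -0.23.

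Few chaperones of the ER were called. Of 17 genes, 1 was called higher and 1 lower in fusion clones and 0 higher and 1 lower in injection clones. Of all probes 4.32% were higher and 5.17% lower in fusion clones, and 1.53% and 2.14% in injection clones, so the shares called were near the background. At an unadjusted p under 0.05 by limma there were 8 of 17 in fusion and 5 of 17 in injection clones, beside 27.2% and 23.2% of all probes. By the threshold of the methods 3 and 2 were higher and 0 lower, beside 17% and 14% of all probes in either direction. The largest differences of the 17 genes, 2.44 and 2.48, were not called. The medians were 0.38 and 0.37, where all probes had -0.12 and -0.08. *Hsp90b1*, the ER form of HSP90, fell 1.99-fold in fusion clones (-0.99 ± 0.15, SE, adjusted p of 0.0171 by limma) and as a log2 difference by -1.0 ± 0.14 (SE, adjusted p of 0.0305) in injection clones. The fusion clones were at 16.27 to 16.29, the injection clones at 16.15 to 16.41 and the female embryos at 17.11 to 17.47. The males, at 16.56 to 17.23, were between them or level with the females. Clones all below the females were present in 15.4% of all probes for fusion and 12.5% for injection clones. Every clone was below every control in 4.02% of all probes. A dimmer probe of *Hsp90b1* was at 0.12 in fusion and -0.52 in injection clones, neither called. The call of its brightest probe held without any single sample in fusion clones and was lost in injection clones without clone 1, 2 or 3 or female 3. *Hyou1*, a large chaperone that assists BiP, rose in fusion clones (1.33 ± 0.25, SE, adjusted p of 0.0274), from 10.52 ± 0.44 (SD, n = 3) to 11.85 ± 0.18 (SD, n = 4). In injection clones it was at 1.35 ± 0.31 (SE, adjusted p of 0.0682). Of 14 genes of ER-associated degradation, 1 was called higher and 0 lower in fusion clones, again beside 4.32% of all probes higher, and 0 in injection clones. *Derl2*, a membrane protein of that pathway, rose in fusion clones (0.71 ± 0.16, SE, adjusted p of 0.0447) and had a like difference of 0.71 ± 0.14 (SE, adjusted p of 0.0549) in injection clones, while a dimmer probe was at 0.08 and -0.17. The calls of *Hyou1* and *Derl2* were lost without any single fusion clone, and without female 2 or 3 for *Hyou1* and female 1 or 3 for *Derl2*.

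Genes of amino acid supply and other ATF4 targets had mostly negative differences, but none was called. Of the 26 tested in fusion clones, 21 had values below 0, with a median of -0.63, where that of all probes was -0.12. An unadjusted p under 0.05 by limma was found for 7 of them, as for 27.2% of all probes. In injection clones 18 of 27 were below 0, with a median of -0.66, where that of all probes was -0.08. Such a p was found for 6 of them, as for 23.2% of all probes. Both counts of such p were at the background. The share of all probes with values below 0 was not counted. The smallest p in fusion clones belonged to *Gpt2*, an alanine aminotransferase, at -1.86 ± 0.46 (SE, adjusted p of 0.054 by limma). All 4 fusion clones (8.36 to 8.69) were below the females (9.34 to 11.36), as in 15.4% of all probes. In injection clones it belonged to *Slc3a2*, the shared chain of several amino acid transporters, at -0.79 ± 0.16 (SE, adjusted p of 0.0524). The injection clones were at 14.20 to 14.33 and the females at 14.80 to 15.31, a gap with the clones lower as in 12.5% of all probes.

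The aminoacyl-tRNA synthetases, which load amino acids onto tRNAs and are raised by ATF4, were lower in fusion clones for 4 of 12 genes and in injection clones for 1 of 12, with 0 higher in both, beside 5.17% and 2.14% of all probes lower. The share of all probes includes dim ones, whereas each synthetase stands by its brightest probe. Among probes well above background on every array of a group, 2372 of 22934 were lower in fusion and 1068 of 23125 in injection clones. The medians of the synthetases were -0.58 and -0.64, where those of all probes were -0.12 and -0.08. In each comparison 11 of 12 had values below 0, and the share of all probes below 0 was not counted. The largest falls in fusion clones were in *Iars* (-1.34 ± 0.26, SE, adjusted p of 0.0317 by limma), *Gars* (-0.91 ± 0.18, SE, adjusted p of 0.0326) and *Tars* (-0.87 ± 0.17, SE, adjusted p of 0.03), for isoleucine, glycine and threonine. The fourth was *Mars*, for methionine, at -0.71 ± 0.16 (SE, adjusted p of 0.0418). A second probe of *Iars* also fell, by -1.80 as a log2 difference (adjusted p of 0.0216), while the dimmer probes of *Tars* and *Mars* were at -0.41 and -0.05 and were not called. In injection clones *Wars*, for tryptophan, fell (-0.75 ± 0.14, SE, adjusted p of 0.0474), and its dimmer probe was at 0.18. *Iars*, *Gars* and *Tars* were at -1.36, -0.94 and -0.70 in injection clones, with adjusted p of 0.0658, 0.0758 and 0.0653. The call of *Wars* was lost without any single sample. Those of *Iars*, *Gars* and *Mars* were lost without any single fusion clone, *Iars* also without female 1 or 3, *Gars* without female 3 and *Mars* without female 2, and that of *Tars* without fusion clone 1, 2 or 3. A dimmer probe of *Eprs* was called higher in fusion clones, at 3.59, while its brightest was not. Between fusion and injection clones none of the 5 lists had a gene called. The smallest p belonged to *Eif2ak1*, *Dnajb9*, *Vcp*, *Eif4ebp1* and *Tars*, with adjusted p of 0.755 to 0.814.

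**Figure D4:**
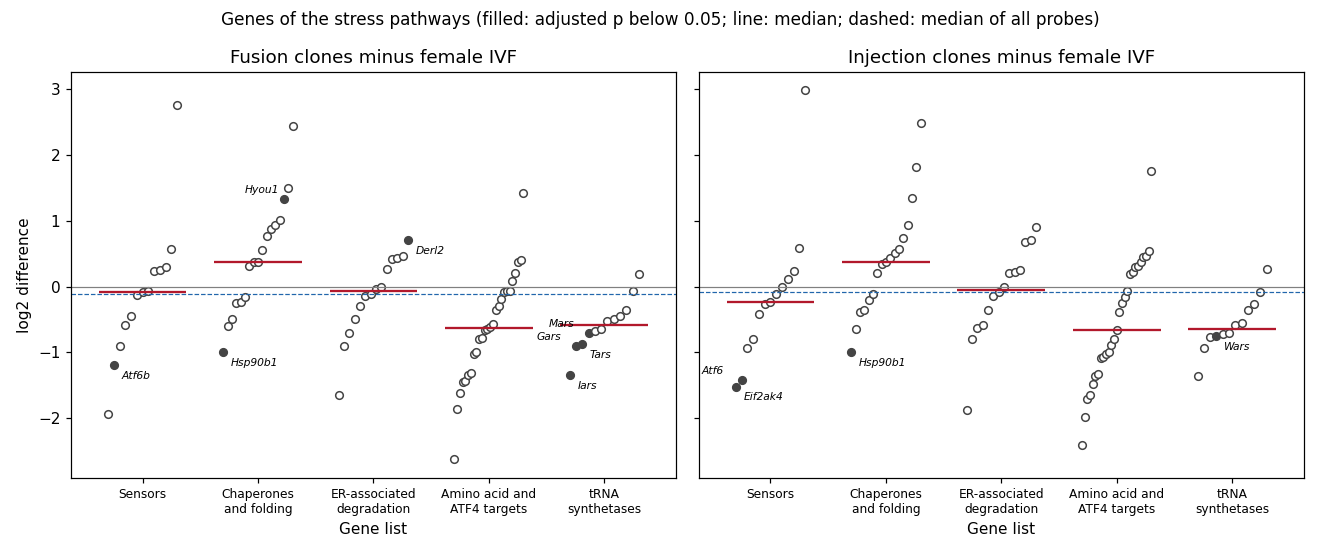
Log2 difference from female IVF-derived embryos (vertical axes) of each tested gene of 5 stress pathway lists in fusion clones (left) and injection clones (right), in order of size within a list. Filled points, with names, had an adjusted p below 0.05, red lines are list medians, and dashed lines are the medians of all probes, -0.12 and -0.08. The medians of the amino acid genes (-0.63 and -0.66) and of the tRNA synthetases (-0.58 and -0.64) are below the dashed lines, and those of the chaperones (0.38 and 0.37) above.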

How the data were processed

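The 14 blastocyst samples were each hybridized to a 1-color Agilent array. The authors deposited linear intensity values of every spot, which the Feature Extraction software (version 10.5.1.1 for clones, 9.5.3.1 for IVF-derived embryos) had background-subtracted within the array but not normalized between arrays, beside marks for outlying spots and spots well above background. They also deposited log2 values of the same arrays, used as an alternative. All of its columns matched a sample. After removal of 1639 control spots and of outlying spots, the processed intensities underwent quantile normalization and were taken to log2, with lower values raised to 16. The brightest probe stands for a gene. Probes well above background on at least 1 array were tested with limma 3.58.1 in R 4.3.3 (lmFit, eBayes) in pairwise fits, with Benjamini-Hochberg adjustment over all probes. A gene was called at an adjusted p below 0.05. The number of arrays limits the precision. The fits were tested on simulated data.

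The genes and pathway lists were chosen with earlier results of these data known. All 10 genes and all genes of the sensor list are named. From each other list and comparison with clones, the called genes with the greatest differences are named, at most 3 in each direction, or else the one with the smallest p. *Mars* and the dimmer probes were named after their values were seen. Male and female embryos of the same replicate number had weak correlations of their deviations (0.109, 0.128 and 0.110). Those of fusion and injection clones were -0.057 to 0.108. The labels name no pairing, and correlations of this size do not establish one. A replicate block called none of the 10 genes between male and female embryos. Alternatives were other scalings, background corrections, floors and filters, the deposited log2 values, a joint fit, a variance trend, gene means, the threshold of the methods and leaving out each sample. Keeping outlier spots was chosen after seeing the data. Figures were drawn with matplotlib 3.10.9 in Python 3.11.15.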

Additional observations from a re-analysis of the deposited data

How the results depend on the processing

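Of 10 genes, 1 was called in fusion clones against female embryos. The count was 2 with probes well above background on every array of a group and by the threshold of the methods, 0 with the replicate block, and 0 to 2 when each sample was left out. In injection clones the count was 0, and it was 1 with normexp, with the filter on every array, with all 4 groups in one fit and with a variance trend, in each case *Xbp1*, and 2 by the threshold of the methods. That threshold gave 1 for male against female embryos. The other settings gave the same counts.

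*Xbp1*, *Asns*, *Herpud1*, *Chac1* and *Atf4* had negative differences in both clone groups under all settings. *Sesn2* had positive differences in both under all settings, 0.11 to 0.86 in fusion and 0.17 to 0.92 in injection clones. In injection clones *Ddit3* also stayed above 0 (0.13 to 0.61) and *Hspa5* below 0 (-0.73 to -0.10). The log2 differences that follow changed sign when single samples were left out. Against female embryos, fusion clones ranged from -2.15 to 0.36 for *Atf3*, -0.45 to 0.01 for *Ddit3*, -1.56 to 0.26 for *Trib3* and -0.60 to 0.03 for *Hspa5*. Injection clones ranged from -2.78 to 0.01 for *Atf3* and -1.49 to 0.32 for *Trib3*. Fusion against injection clones ranged from -0.55 to 1.50 for *Atf3*, -0.28 to 0.16 for *Trib3*, -0.59 to 0.18 for *Herpud1* and -0.22 to 0.14 for *Sesn2*, which was 0.23 as the mean of its probes. Males against females ranged from -0.04 to 0.21 for *Atf4*, -0.05 to 0.57 for *Ddit3*, -0.14 to 1.76 for *Trib3*, -0.30 to 0.39 for *Asns*, -1.39 to 2.33 for *Chac1* and -0.76 to 0.30 for *Herpud1*.

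For the sensor list in fusion clones, leaving out samples gave -0.51 to 0.39 for *Eif2ak2* (0.23 with 75th percentile scaling, 0.26 with deposited values). It gave -0.08 to 0.70 for *Ern2* (-0.01 with normexp), -0.28 to 0.02 for *Mbtps1* and -0.38 to 0.09 for *Ppp1r15b*. In injection clones it gave -0.06 to 0.28 for *Eif2ak1* (-0.06 with the block), -0.08 to 0.14 for *Eif2ak3* (-0.03 with 75th percentile scaling) and -0.45 to 0.33 for *Ern2* (0.16 with 75th percentile scaling, 0.19 with deposited values). As means of their probes, *Mbtps1* was at 0.71 and 0.34 in fusion and injection clones, *Ppp1r15b* at 0.00 in fusion clones, and *Eif2ak1* at -0.25 in injection clones and 0.01 between the clone groups. The calls of pathway genes rested on few samples. Leaving out samples gave 0 to 1 genes of the sensor list, 1 to 4 chaperones, 0 to 2 degradation genes, 0 to 2 ATF4 targets and 0 to 4 tRNA synthetases in fusion clones. In injection clones the counts were 0 to 2, 0 to 1, 0 to 1, 0 to 1 and 0 to 1 in the same order. The pathway calls were lost in 3 (*Hsp90b1*, fusion clones) to 17 (*Wars*) of 20 settings. The causes were not tested.

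Over all probes, 3079 were called in fusion clones, and 1880 genes as means of probes, 5533 by the threshold of the methods, 0 with the replicate block and 1349 to 3149 without single samples. The 1205 in injection clones became 629 with deposited values, 599 with a floor of 1, 774 with no filter, 1932 with the filter on every array, 3097 in one fit, 777 as gene means, 4602 by the threshold of the methods, 0 with the block and 173 to 1366 without single samples. Between clone groups the count of 0 became 2, 11 and 1 with deposited values, a floor of 1 and one fit, 769 by the threshold of the methods and 0 to 2 without single samples. For males it went from 19 to 7 with normexp, 151, 100, 34, 58 and 205 with deposited values, a floor of 1, no filter, the filter on every array and one fit, 3 with a variance trend, 1854 by the threshold of the methods, 0 with the block and 1 to 39 without single samples. Replicate numbers of clones and female embryos share only a number (correlations of -0.063 to 0.056).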
